A study of Mus musculus with 16 samples.

Results

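The glycolysis and lactate genes described here are a list of names, drawn up with earlier results of these data known but by a rule that uses no measured value. They comprise glucose transporters, the enzymes of glycolysis with their isozymes, the enzymes that set the level of fructose 2,6-bisphosphate, lactate dehydrogenase, lactate transporters, pyruvate dehydrogenase with its kinases, and Hif1a. All 32 names were found among the 55450 genes of the count table, where they take up 33 rows because Aldoa has 2. The second Aldoa row (ENSMUSG00000114515.2, GRCm38 chr7:126800790-126809108) lay below the filter on low counts in each comparison of 2 groups, and the other 32 rows passed it and were tested.

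Glycolysis splits glucose into pyruvate, which either enters mitochondria through pyruvate dehydrogenase or is reduced to lactate and exported with a proton by monocarboxylate transporters. Activated T cells are known to raise glucose uptake and lactate output, and cells of a tumor compete for glucose in a medium rich in lactate and poor in oxygen. HIF-1α, the protein of Hif1a, is stabilized when oxygen is low and binds with ARNT to promoters of many of these genes. SIRT2 is an NAD-dependent deacetylase, known to act on several glycolytic enzymes as proteins.

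CD4+ and CD8+ tumor-infiltrating lymphocytes (TILs) came from subcutaneous tumors of B16F10, a mouse melanoma line, in wild-type (WT) mice and in Sirt2-/- mice, with 4 libraries in each of the 4 groups. All mice bore the same tumor, and no further treatment is given for them. The Sirt2 deletion (allele Sirt2tm1.1Fwa) is a germline one, so the other host cells of those tumors lacked Sirt2 as well. The methods give mice 7 to 8 weeks old, with controls of the same age and sex, and TILs enriched on a density gradient and with beads against CD3ε, a surface protein of T cells. The step that parted CD4+ from CD8+ cells is not given in the sources used here. In bulk RNA, fewer cells of a type and less RNA per cell cannot be told apart.

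Total counts per library ranged from 28000949 to 62407851. Genes with at least 1 count numbered 8169 in CD4+ Sirt2-/- library 4, 12587 in CD4+ WT library 1 and 14411 in CD8+ WT library 1. The others had 17730 to 22138. Each comparison was made with and without these 3 sparse libraries, though for some genes the value of a single version is printed. A member printed only without them did not pass with all libraries. Levels are given as CPM, the count of a gene divided by the TMM-scaled library total and multiplied by 1000000. Sirt2 had 33.4 to 75.6 CPM in the WT libraries and 0 to 12.2 CPM in the Sirt2-/- libraries. Cd4 had 384 to 620 CPM in CD4+ libraries and 0 to 4.93 CPM in CD8+ libraries, and Cd8a had 1003 to 1261 CPM in CD8+ libraries and 0.0333 to 33.4 CPM in CD4+ libraries. The 7 melanoma markers summed to 81.5 CPM in CD4+ Sirt2-/- library 4 and to 98.4 CPM in CD4+ WT library 1, against at most 15.7 CPM in the other libraries, and their part in the results was not tested.

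Per length of exon, in TPM, the CPM analogue that also divides by exon length, the most abundant members by median over the 16 libraries were Aldoa (113 TPM), Ldha (94.9 TPM), Pkm (94.9 TPM), Eno1 (82.4 TPM), Gapdh (77.8 TPM), Pgk1 (57.8 TPM), Gpi1 (49.4 TPM) and Hif1a (46.3 TPM). The ranges of these genes over the libraries overlapped widely, so neighbours in this order were not separated. In CD4+ Sirt2-/- library 4, 10 of the 33 rows had no count, among them Ldhb, Slc16a3, Eno3 and Tigar. In each other library at most 1 row, the second Aldoa row or Eno2, had none.

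The first question was how the pathway differs between CD8+ and CD4+ TILs. In WT TILs over all 8 libraries, 6 of 32 members passed the test, with Slc16a1 and Eno3 higher and Hif1a, Bpgm, Ldhb and Pdk1 lower in CD8+ cells. Calls were made by edgeR's quasi-likelihood test at a Benjamini-Hochberg adjusted p below 0.05 over all genes. Of all 14892 genes tested, 4.89% were called higher and 6.96% lower. Of the same 32 members, 2 passed in Sirt2-/- TILs, Eno1 higher and Hif1a lower, where 0.918% of 15787 genes were called higher and 1.32% lower. The median log2 fold change of the members was -0.076 in WT and 0.20 in Sirt2-/- TILs, beside -0.023 and 0.16 over all genes tested.

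Without the 3 sparse libraries, many more members passed. In WT TILs 10 members were then higher and 6 lower in CD8+ cells, against 14.9% and 13.1% of 15694 genes. Among Sirt2-/- TILs 11 members were higher and 4 lower, against 13.8% and 11.6% of 16703 genes. The Sirt2-/- comparison rested on 1 library, since leaving out CD4+ Sirt2-/- library 4 alone already gave these 15 calls in place of 2. In WT TILs no single library did so. Leaving out CD4+ WT library 4, CD8+ WT library 2 or CD8+ WT library 4 gave 2 calls each, and leaving out CD8+ WT library 3 gave 3. The 2 genotypes share no library in this comparison. Of the members called without the 3 libraries, 13 were called in both genotypes, which is 81.2% of the WT calls and 86.7% of the Sirt2-/- calls, and all 13 had the same direction. The same share over all called genes is not given here, so this overlap is not read as a trait of the members. It was 81.8% and 100% for the HIF pathway genes outside the members, and 60.0% and 75.0% for the further pathway genes. The members' median was 0.098 in WT and 0.14 in Sirt2-/- TILs, with 0.0067 and -0.0042 over all genes.

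**Figure D1:**
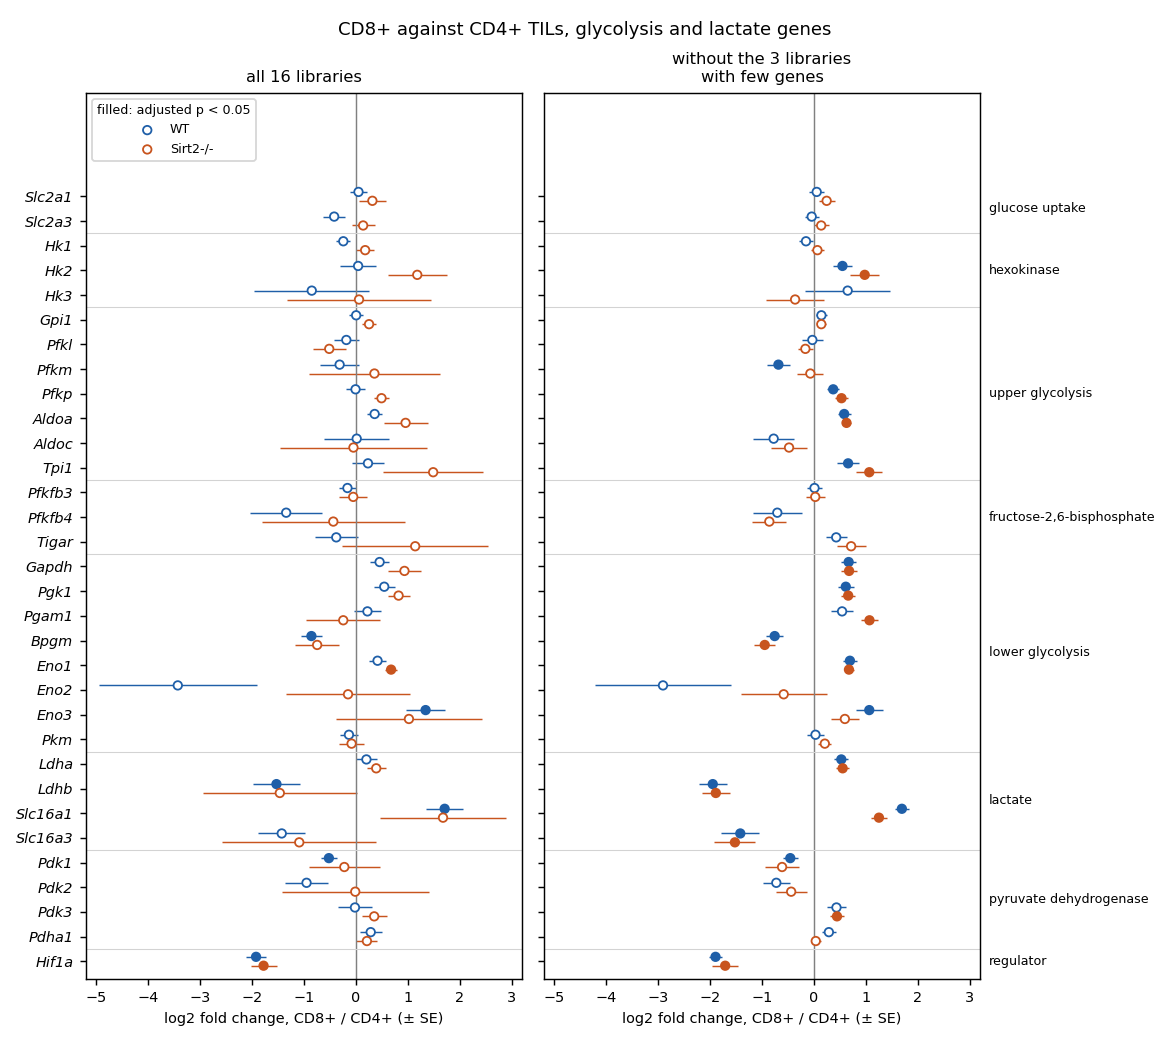
Log2 fold changes of CD8+ over CD4+ TILs (x axis, ± SE from edgeR) for 32 members grouped by role (y axis), in WT (blue) and Sirt2-/- (orange) TILs, with all 16 libraries on the left and without the 3 sparse libraries on the right. Filled points passed an adjusted p of 0.05, and Hif1a lies near -1.9 in WT and near -1.7 to -1.8 in Sirt2-/- TILs in both panels.

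Hif1a, which encodes the oxygen-regulated subunit of the HIF-1 transcription factor, had the smallest adjusted p of any member in WT TILs with all libraries. It had 399, 712, 596 and 546 CPM in the WT CD4+ libraries, 433, 868, 775 and 870.0 CPM in the Sirt2-/- CD4+ libraries, 126, 172, 160.2 and 168 CPM in the WT CD8+ libraries and 176, 209, 192 and 289 CPM in the Sirt2-/- CD8+ libraries. Every CD8+ library lay below every CD4+ library of either genotype. The log2 fold change was -1.92 ± 0.19 (SE, edgeR adjusted p = 0.000104) in WT TILs, so CD8+ cells had 0.264 times the CD4+ level. The Sirt2-/- value was -1.78 ± 0.25 (SE, edgeR adjusted p = 0.0106). The values without the 3 libraries were -1.90 ± 0.12 and -1.71 ± 0.26, and Hif1a passed in both genotypes with and without them. Leaving out CD8+ Sirt2-/- library 2 or 3 alone lost the Sirt2-/- call of Hif1a.

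Glucose enters T cells mainly through the transporters of Slc2a1 (GLUT1) and Slc2a3 (GLUT3), and neither passed in any comparison. Slc2a1 had 38.4, 42.1, 36.6 and 44.9 CPM in the WT CD4+ libraries, 31.2, 28.3, 42.1 and 29 CPM in the Sirt2-/- CD4+ libraries, 47.5, 37.6, 46.5 and 44.6 CPM in the WT CD8+ libraries and 34.9, 39.8, 42.5 and 47.1 CPM in the Sirt2-/- CD8+ libraries. These ranges overlapped in both genotypes, and the CD8+ against CD4+ log2 fold change was 0.050 ± 0.16 (SE, edgeR adjusted p = 0.903) in WT and 0.32 ± 0.26 (SE, edgeR adjusted p = 0.836) in Sirt2-/- TILs. Slc2a3 had 30.3 to 74.2 CPM over all libraries.

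Hexokinase traps glucose in the cell as glucose 6-phosphate, with Hk1 as the constitutive and Hk2 as the inducible isozyme. Hk2 had 31.8, 19.7, 18.3 and 24 CPM in the WT CD4+ libraries, 7.81, 12.1, 15.8 and 6.1 CPM in the Sirt2-/- CD4+ libraries, 9.98, 34.6, 25.6 and 30.9 CPM in the WT CD8+ libraries and 18.5, 18.4, 25.2 and 33.7 CPM in the Sirt2-/- CD8+ libraries. With all libraries its log2 fold change between CD8+ and CD4+ TILs was 0.043 ± 0.35 (SE, edgeR adjusted p = 0.965) in WT and 1.18 ± 0.57 (SE, edgeR adjusted p = 0.5) in Sirt2-/- cells. It passed in both once the 3 libraries were left out, at 0.55 ± 0.18 (SE, edgeR adjusted p = 0.0394) and 0.98 ± 0.28 (SE, edgeR adjusted p = 0.028). In WT TILs the 2 libraries left out were the extremes of Hk2, the highest CD4+ value and the lowest CD8+ value. Hk1 had 124 to 237 CPM and did not pass, nor did Hk3, with 0 to 10.7 CPM.

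Of the 7 tested genes from phosphohexose isomerase to triosephosphate isomerase, none passed with all libraries. Pfkp, Aldoa and Tpi1, without the 3 libraries, were higher in CD8+ TILs in both genotypes. Aldoa, which encodes the aldolase that splits fructose 1,6-bisphosphate, had 294, 252, 218 and 288 CPM in the WT CD4+ libraries, 204, 233, 245 and 48.7 CPM in the Sirt2-/- CD4+ libraries, 277, 406, 334 and 399 CPM in the WT CD8+ libraries and 359.7, 356, 369.6 and 350.2 CPM in the Sirt2-/- CD8+ libraries. The values of CD4+ Sirt2-/- library 4 and of CD8+ WT library 1 were the lowest of their groups. The log2 fold change of Aldoa without the 3 libraries was 0.58 ± 0.13 (SE, edgeR adjusted p = 0.00626) in WT and 0.63 ± 0.09 (SE, edgeR adjusted p = 0.000824) in Sirt2-/- TILs, and with them 0.36 ± 0.15 (adjusted p = 0.15 by edgeR) and 0.96 ± 0.42 (adjusted p = 0.435 by edgeR).

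Pfkp, the platelet-type isozyme of the committed phosphofructokinase step, had 303, 209, 165 and 190.1 CPM in the WT CD4+ libraries, 141, 141, 181 and 181 CPM in the Sirt2-/- CD4+ libraries, 169, 251, 229 and 252 CPM in the WT CD8+ libraries and 210.4, 196, 249.5 and 257 CPM in the Sirt2-/- CD8+ libraries. Once the 3 libraries were left out, its log2 fold change was 0.37 ± 0.11 (SE, edgeR adjusted p = 0.0315) in WT and 0.53 ± 0.13 (SE, edgeR adjusted p = 0.0121) in Sirt2-/- TILs. With all libraries it was -0.0071 ± 0.19 in WT TILs, where CD4+ WT library 1 had the highest value of all. Pfkm, the muscle-type isozyme, had 6.98, 12.3, 16.5 and 12.2 CPM in the WT CD4+ libraries, 12.1, 8.79, 7.43 and 0.0179 CPM in the Sirt2-/- CD4+ libraries, 15.2, 7.56, 9.48 and 8.55 CPM in the WT CD8+ libraries and 8.62, 6.61, 10.7 and 10.9 CPM in the Sirt2-/- CD8+ libraries. It was lower in CD8+ WT TILs without the 3 libraries (-0.68 ± 0.22 (SE, edgeR adjusted p = 0.04)) and did not pass otherwise. Pfkl, the liver-type isozyme, had 28 to 86.2 CPM and did not pass.

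Tpi1 interconverts the triose phosphates made by aldolase. It had 39.9, 24.2, 23.3 and 39.9 CPM in the WT CD4+ libraries, 11.8, 20.1, 25.6 and 0.269 CPM in the Sirt2-/- CD4+ libraries, 18.2, 48.5, 39.6 and 50.4 CPM in the WT CD8+ libraries and 33.6, 36.6, 51.4 and 42.8 CPM in the Sirt2-/- CD8+ libraries. Its log2 fold change without the 3 libraries was 0.66 ± 0.21 (SE, edgeR adjusted p = 0.0396) in WT TILs, where CD4+ WT library 4 and CD8+ WT library 3 still overlapped, and 1.07 ± 0.25 (SE, edgeR adjusted p = 0.0121) in Sirt2-/- TILs. Gpi1 (184 to 329 CPM) and Aldoc (0 to 13.9 CPM) did not pass.

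In the lower part of the pathway, which yields ATP and pyruvate, 4 of 8 members were higher and Bpgm was lower in CD8+ TILs without the 3 libraries, in WT and again in Sirt2-/- cells. With all libraries Eno3 rose and Bpgm fell in WT TILs, and Eno1 rose in Sirt2-/- TILs. Gapdh, which makes 1,3-bisphosphoglycerate, had 251, 281, 212 and 262 CPM in the WT CD4+ libraries, 179, 226, 272 and 86.5 CPM in the Sirt2-/- CD4+ libraries, 245, 437, 334 and 436 CPM in the WT CD8+ libraries and 327, 315, 427 and 407 CPM in the Sirt2-/- CD8+ libraries. All Sirt2-/- CD8+ libraries exceeded all Sirt2-/- CD4+ libraries, whereas CD8+ WT library 1 lay within the CD4+ WT range. Without the 3 libraries the log2 fold change of Gapdh was 0.67 ± 0.14 (SE, edgeR adjusted p = 0.00501) in WT and 0.68 ± 0.16 (SE, edgeR adjusted p = 0.0091) in Sirt2-/- TILs. With them it was 0.46 ± 0.18 (adjusted p = 0.138 by edgeR) and 0.94 ± 0.32 (adjusted p = 0.237 by edgeR).

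Pgk1, which makes the first ATP of this part, had 72.5, 118, 81.1 and 117 CPM in the WT CD4+ libraries, 68.2, 98.9, 96.1 and 54.4 CPM in the Sirt2-/- CD4+ libraries, 112, 173, 143 and 169.7 CPM in the WT CD8+ libraries and 125, 143, 155 and 144 CPM in the Sirt2-/- CD8+ libraries. Its log2 fold change without the 3 libraries was 0.61 ± 0.15 (SE, edgeR adjusted p = 0.0122) in WT and 0.66 ± 0.14 (SE, edgeR adjusted p = 0.00495) in Sirt2-/- TILs. Pgam1, a phosphoglycerate mutase, had 31, 18.9, 13.2 and 23.6 CPM in the WT CD4+ libraries, 11, 11.7, 13.1 and 85.8 CPM in the Sirt2-/- CD4+ libraries, 24.1, 28.1, 23 and 30.1 CPM in the WT CD8+ libraries and 20.5, 26.1, 27.8 and 28 CPM in the Sirt2-/- CD8+ libraries. The value of CD4+ Sirt2-/- library 4 was far above every other one. With it, the Sirt2-/- log2 fold change was -0.24 ± 0.71, and without it 1.07 ± 0.16 (SE, edgeR adjusted p = 0.000784). Pgam1 did not pass in WT TILs.

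Bpgm, whose enzyme makes 2,3-bisphosphoglycerate in a side branch that bypasses the Pgk1 step, had 31.6, 33.1, 27.6 and 35.8 CPM in the WT CD4+ libraries, 44.3, 33.4, 25.5 and 17.9 CPM in the Sirt2-/- CD4+ libraries, 16.9, 19.2, 20.5 and 17.6 CPM in the WT CD8+ libraries and 19.7, 20.3, 19.8 and 13.2 CPM in the Sirt2-/- CD8+ libraries. All WT CD8+ values lay below all WT CD4+ values, while CD4+ Sirt2-/- library 4 lay within the Sirt2-/- CD8+ range. The log2 fold change was -0.86 ± 0.20 (SE, edgeR adjusted p = 0.0156) in WT TILs. The Sirt2-/- value was -0.75 ± 0.43 (adjusted p = 0.636 by edgeR) with all libraries and -0.95 ± 0.21 (SE, edgeR adjusted p = 0.00647) without the 3.

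Enolase makes phosphoenolpyruvate, with Eno1 as the common and Eno3 as the muscle-type isozyme. Eno1 had 413, 323, 263 and 325 CPM in the WT CD4+ libraries, 236, 265, 299.8 and 281 CPM in the Sirt2-/- CD4+ libraries, 371, 548, 402 and 529 CPM in the WT CD8+ libraries and 428, 423, 465 and 429 CPM in the Sirt2-/- CD8+ libraries. In Sirt2-/- TILs the 2 cell types were apart in every library, with a log2 fold change of 0.68 ± 0.11 (SE, edgeR adjusted p = 0.0189) that was 0.67 ± 0.10 without the 3 libraries. The call with all libraries was lost when CD4+ Sirt2-/- library 2 or any CD8+ Sirt2-/- library was left out alone. In WT TILs the log2 fold change was 0.42 ± 0.16 (adjusted p = 0.132 by edgeR) and, without the 3 libraries, 0.69 ± 0.14 (SE, edgeR adjusted p = 0.00379). Eno3 had 4.16, 6.08, 9.63 and 5.09 CPM in the WT CD4+ libraries, 11.5, 5.72, 5.67 and 0 CPM in the Sirt2-/- CD4+ libraries, 23.2, 14.6, 14 and 15.2 CPM in the WT CD8+ libraries and 12.8, 12.9, 11.2 and 10.3 CPM in the Sirt2-/- CD8+ libraries. It was higher in CD8+ WT TILs (1.34 ± 0.37 (SE, edgeR adjusted p = 0.0376)), also without the 3 libraries (1.07 ± 0.26), and did not pass in Sirt2-/- TILs. Eno2 stayed at or below 2.5 CPM, and Pkm, whose pyruvate kinase ends the pathway, had 280.3 to 716 CPM and did not pass.

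Part of these transcripts cannot be told from copies elsewhere in the genome. Of all 100-base windows of the annotated transcripts, 51.7% in Pgk1, 33.9% in Pgam1, 20.9% in Gapdh and 20.4% in Eno1 also occur in transcripts of other genes, so their counts are uncertain where reads were shared. For Hif1a the share was 3.19%, for Ldhb 6.44%, for Ldha 0.59%, and for Slc16a1, Slc16a3, Hk2, Bpgm, Eno3 and the main Aldoa row it was 0.

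**Figure D2:**
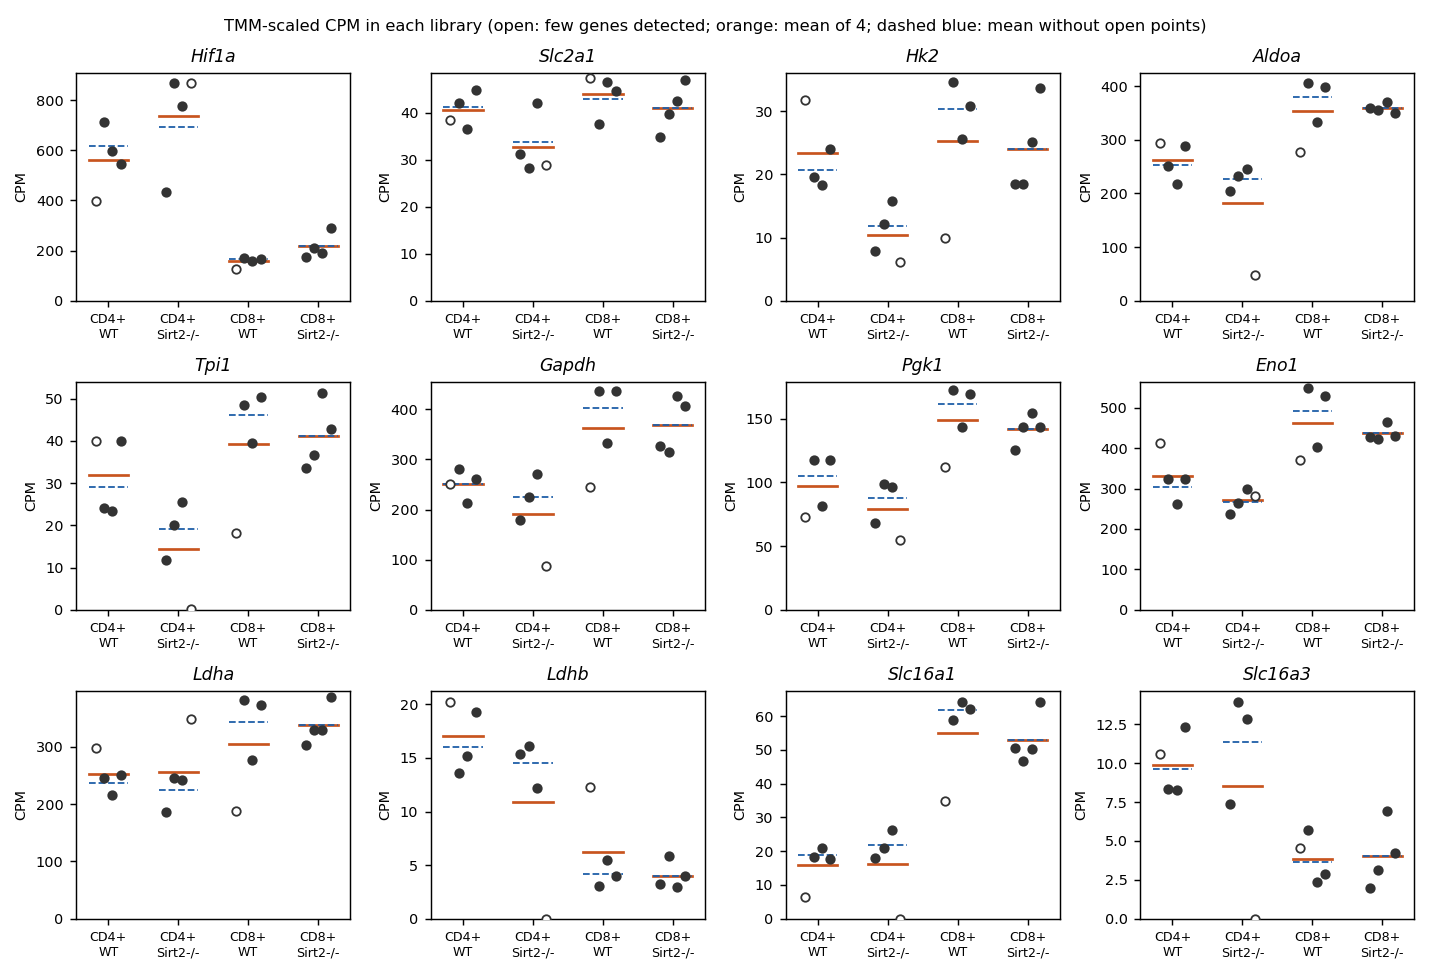
TMM-scaled CPM (y axis) of 12 members in each library, by group (x axis). Open points are the 3 sparse libraries, orange lines the mean of 4 libraries and dashed blue lines the mean without open points. Hif1a separates the cell types in every library, while several enzymes do so only once the open points are set aside.

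The lactate genes split. Slc16a1, encoding the transporter MCT1, and Ldha, whose subunit is known to favour the making of lactate, stood on the higher side in CD8+ TILs. Ldhb, whose subunit is known to favour the use of lactate, and Slc16a3, encoding the export-type transporter MCT4, stood on the lower side. All 4 passed in both genotypes without the 3 libraries.

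Slc16a1 had 6.45, 18.1, 21.1 and 17.8 CPM in the WT CD4+ libraries, 17.9, 21, 26.2 and 0.0179 CPM in the Sirt2-/- CD4+ libraries, 34.9, 58.9, 64.2 and 62 CPM in the WT CD8+ libraries and 50.7, 46.6, 50.2 and 64.1 CPM in the Sirt2-/- CD8+ libraries. No CD8+ library of either genotype was below 34.9 CPM and no CD4+ library above 26.2 CPM. In WT TILs CD8+ cells had 3.27 times the CD4+ level, a log2 fold change of 1.71 ± 0.35 (SE, edgeR adjusted p = 0.00953). The Sirt2-/- value was 1.68 ± 1.21 (adjusted p = 0.775 by edgeR) with all libraries and 1.25 ± 0.16 (SE, edgeR adjusted p = 0.000351) without the 3.

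Slc16a3 had 10.6, 8.35, 8.29 and 12.3 CPM in the WT CD4+ libraries, 7.39, 13.9, 12.9 and 0 CPM in the Sirt2-/- CD4+ libraries, 4.54, 5.68, 2.34 and 2.85 CPM in the WT CD8+ libraries and 1.97, 3.13, 6.93 and 4.21 CPM in the Sirt2-/- CD8+ libraries. Per length of exon it lay below Slc16a1 in CD8+ TILs, at 0.833 ± 0.33 against 14.3 ± 3.4 TPM in WT cells (SD, n = 4). In WT TILs the groups did not overlap, and the log2 fold change of -1.43 ± 0.45 (SE, edgeR adjusted p = 0.0665) missed the threshold, which it passed without the 3 libraries (-1.42 ± 0.37 (SE, edgeR adjusted p = 0.0149)). CD4+ Sirt2-/- library 4 had no Slc16a3 count, and the log2 fold change without it was -1.52 ± 0.39 (SE, edgeR adjusted p = 0.0163).

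Ldha had 297, 245, 217 and 250.3 CPM in the WT CD4+ libraries, 187, 245, 242 and 348 CPM in the Sirt2-/- CD4+ libraries, 187, 381, 276 and 374 CPM in the WT CD8+ libraries and 304, 329, 329 and 387 CPM in the Sirt2-/- CD8+ libraries. With all libraries the cell types overlapped in both genotypes. With the 3 libraries left out, the log2 fold change was 0.53 ± 0.13 (SE, edgeR adjusted p = 0.0137) in WT and 0.55 ± 0.12 (SE, edgeR adjusted p = 0.00773) in Sirt2-/- TILs. Ldhb had 20.2, 13.6, 15.2 and 19.3 CPM in the WT CD4+ libraries, 15.4, 16.1, 12.2 and 0 CPM in the Sirt2-/- CD4+ libraries, 12.3, 3.04, 5.49 and 3.98 CPM in the WT CD8+ libraries and 3.27, 5.87, 3.0 and 3.97 CPM in the Sirt2-/- CD8+ libraries. It was lower in every CD8+ WT than in every CD4+ WT library (-1.53 ± 0.44 (SE, edgeR adjusted p = 0.0474)), where CD8+ WT library 1 stood above the other 3 CD8+ libraries. Without the 3 libraries the log2 fold change of Ldhb was -1.95 ± 0.27 (SE, edgeR adjusted p = 0.000467) in WT and -1.89 ± 0.26 (SE, edgeR adjusted p = 0.000556) in Sirt2-/- TILs.

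Pyruvate dehydrogenase kinases shut the entry of pyruvate into mitochondria. Pdk1 had 125, 92.7, 112 and 138 CPM in the WT CD4+ libraries, 217, 96.5, 95.9 and 10.3 CPM in the Sirt2-/- CD4+ libraries, 91, 75.6, 89.4 and 86 CPM in the WT CD8+ libraries and 125, 80.4, 80.1 and 80.2 CPM in the Sirt2-/- CD8+ libraries. It was lower in CD8+ WT TILs (-0.52 ± 0.15 (SE, edgeR adjusted p = 0.0434), and -0.46 ± 0.15 without the 3 libraries) and did not pass in Sirt2-/- TILs. Pdk3 had 43.6, 31.9, 27.9 and 36.7 CPM in the WT CD4+ libraries, 25.2, 31.6, 34.5 and 40.5 CPM in the Sirt2-/- CD4+ libraries, 14, 52.1, 34.7 and 44.3 CPM in the WT CD8+ libraries and 40.7, 46.3, 42.4 and 40.1 CPM in the Sirt2-/- CD8+ libraries. It passed only in Sirt2-/- TILs without the 3 libraries, higher in CD8+ cells (0.44 ± 0.13 (SE, edgeR adjusted p = 0.0285)). A difference between the genotypes in this contrast was called for no member by the interaction test given last. Pdk2 (0 to 18.6 CPM) and Pdha1 (61.6 to 139.7 CPM), the catalytic subunit of the complex, did not pass.

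Fructose 2,6-bisphosphate activates phosphofructokinase, and its makers Pfkfb3 (26 to 47.4 CPM) and Pfkfb4 (0 to 8.58 CPM) and the phosphatase of Tigar did not pass. Tigar had 38.4, 12.3, 10.9 and 10.3 CPM in the WT CD4+ libraries, 9.65, 9.07, 4.56 and 0 CPM in the Sirt2-/- CD4+ libraries, 11.9, 17.5, 14.5 and 13.3 CPM in the WT CD8+ libraries and 13.5, 9.58, 13.8 and 15.4 CPM in the Sirt2-/- CD8+ libraries. CD4+ WT library 1 was far above the other libraries, and CD4+ Sirt2-/- library 4 had no count.

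Promoters are shown for 4 members that moved together or apart between the cell types, with the core ACGTG of the hypoxia response element in capitals on either strand (as CACGT on the reverse one). A CACGTG, the E-box of basic helix-loop-helix factors, holds this core on both strands and counts as 2 matches. Ldha and Pgk1 stand for enzymes, and Slc16a1 and Slc16a3 for the transporters with opposite directions. The windows run from 250 bases before to 50 bases after the RefSeq start, all on the plus strand of GRCm38.p6. They were chosen after their values were seen.
Ldha, chr7:46845554-46845853: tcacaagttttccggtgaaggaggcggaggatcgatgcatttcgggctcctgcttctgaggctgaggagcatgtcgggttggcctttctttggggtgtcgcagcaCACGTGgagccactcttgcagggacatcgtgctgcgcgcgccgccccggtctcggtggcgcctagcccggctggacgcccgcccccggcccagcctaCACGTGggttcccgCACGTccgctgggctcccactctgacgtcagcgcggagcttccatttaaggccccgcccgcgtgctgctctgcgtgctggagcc
Pgk1, chrX:106186850-106187149: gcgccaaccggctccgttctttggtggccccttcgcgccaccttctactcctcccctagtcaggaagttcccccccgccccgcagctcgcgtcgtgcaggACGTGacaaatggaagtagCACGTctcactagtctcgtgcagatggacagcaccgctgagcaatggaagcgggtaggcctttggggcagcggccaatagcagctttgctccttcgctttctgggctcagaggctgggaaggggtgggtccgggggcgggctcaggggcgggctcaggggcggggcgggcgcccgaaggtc
Slc16a1, chr3:104638414-104638713: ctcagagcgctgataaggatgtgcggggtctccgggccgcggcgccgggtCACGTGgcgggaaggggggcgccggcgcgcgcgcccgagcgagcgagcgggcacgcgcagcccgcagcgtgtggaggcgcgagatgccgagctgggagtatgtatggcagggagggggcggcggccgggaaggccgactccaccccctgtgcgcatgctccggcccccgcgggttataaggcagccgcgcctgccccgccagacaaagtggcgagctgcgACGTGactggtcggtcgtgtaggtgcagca
Slc16a3, chr11:120948817-120949116: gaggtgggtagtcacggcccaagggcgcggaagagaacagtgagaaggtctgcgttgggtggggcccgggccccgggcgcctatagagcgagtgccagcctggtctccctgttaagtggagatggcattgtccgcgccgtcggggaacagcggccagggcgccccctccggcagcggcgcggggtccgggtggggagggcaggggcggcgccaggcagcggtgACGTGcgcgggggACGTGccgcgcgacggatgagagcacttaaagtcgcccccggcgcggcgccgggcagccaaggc
The Ldha window has 5 matches and the Slc16a1 window 3, while Pgk1 and Slc16a3 have 2 each. Ldha has another RefSeq start, whose window (chr7:46846832-46847131) has 0 matches, and the one with more matches is shown. A gene with several windows counts as holding a motif when any of them does. RefSeq promoters were found for 31 of the 32 members. ACGTG was in 18 of them (58.1%), against 21.8% of 27025 genes with a promoter in the same table, and CACGTG in 19.4% against 8.09%. The members' windows also held more CG pairs, a median of 21 against 8 over all genes. Among the members called without the 3 libraries in either genotype, ACGTG was found in 8 of 12 that were higher in CD8+ TILs (66.7%) and in 3 of 6 that were lower (50.0%). GCGTG, the other form of the core, was in 58.1% of the members and 35.2% of all genes. These matches describe letters and not binding sites.

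Genes of the pathway that are not members behaved as follows. Of 37 listed genes of side branches, pyruvate transport and gluconeogenesis, 28 were tested without the 3 libraries, and 9 were higher and 1 lower in CD8+ WT TILs. Over all genes 14.9% were called higher and 13.1% lower. Among those tested in Sirt2-/- TILs, 8 of the list were higher and none lower, against 13.8% and 11.6% of all genes. Of the listed genes, 6 were called in both genotypes, namely Bsg, Gpd2, Pgd, Rpia, Taldo1 and Tkt. Tkt, Taldo1 and Rpia belong to the non-oxidative arm of the pentose phosphate pathway, and Tkt had a log2 fold change of 1.16 ± 0.13 (SE, edgeR adjusted p = 0.000106) in WT and 1.11 ± 0.12 (SE, edgeR adjusted p = 0.000144) in Sirt2-/- TILs. Gpd2, the mitochondrial glycerol 3-phosphate dehydrogenase, had 1.65 ± 0.16 (SE, edgeR adjusted p = 4.3e-05) and 1.38 ± 0.21 (SE, edgeR adjusted p = 0.00134). Bsg, the chaperone that carries MCT1 and MCT4 to the membrane, had 0.49 ± 0.12 (SE, edgeR adjusted p = 0.0134) and 0.56 ± 0.12 (SE, edgeR adjusted p = 0.00756). Called in WT TILs alone were Dld, G6pdx and Pdhb, which were higher, and Txnip, an inhibitor of glucose uptake, which was lower (-0.76 ± 0.14 (SE, edgeR adjusted p = 0.00206)). Called in Sirt2-/- TILs alone were Pdp2 and Pgls, both higher. The interaction test called none of these genes, so a difference between the genotypes was not shown. With all libraries Gpd2 and Txnip passed in WT and Tkt in Sirt2-/- TILs.

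Most HIF pathway genes called outside the members were lower in CD8+ TILs, as Hif1a was. Of 21 listed, 19 were tested in WT TILs without the 3 libraries, and 9 were lower and 2 higher in CD8+ cells. Over all genes 13.1% were called lower and 14.9% higher. In Sirt2-/- TILs all 21 listed genes were tested, and 7 were lower and the same 2 higher, against 11.6% and 13.8% of all genes. The 9 genes called in both genotypes were Arnt, Bnip3l, Egln3, Hif1an, Mxi1, Ndrg1 and P4ha1, which were lower, and Fam162a and Mif, which were higher. Arnt, the partner subunit of HIF-1α, had a log2 fold change of -0.66 ± 0.11 (SE, edgeR adjusted p = 0.00137) in WT and -0.87 ± 0.10 (SE, edgeR adjusted p = 0.000173) in Sirt2-/- TILs. Ndrg1, a gene induced by hypoxia, had -2.67 ± 0.18 (SE, edgeR adjusted p = 4.26e-06) and -2.08 ± 0.23 (SE, edgeR adjusted p = 0.000132). Mif, a cytokine gene, had 1.60 ± 0.19 (SE, edgeR adjusted p = 0.000166) and 1.46 ± 0.13 (SE, edgeR adjusted p = 3.87e-05). Epas1, encoding HIF-2α, and Ddit4 were called lower in WT TILs alone. The interaction test called no HIF pathway gene, so a difference between the genotypes was not shown here either. With all libraries Arnt, Epas1, Mxi1, Ndrg1 and P4ha1 were lower and Mif higher in WT TILs, and Mif was higher in Sirt2-/- TILs.

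Markers of NK cells moved with the cell type. The 4 markers summed to 15.7 to 45.7 CPM in CD4+ and to 210.4 to 418 CPM in CD8+ libraries, of which Eomes, a gene that CD8+ T cells also express, made up nearly all. The receptor genes Ncr1, Klra8 and Klrb1c had at most 3.28, 1.13 and 11.4 CPM. NK cells lack surface CD3, by which the methods describe TILs as purified, and how many such cells remained was not measured here. The part of NK cells in the results was not tested.

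Isozyme shares, taken as reads per kb of exon within a family and library, do not depend on the scaling between libraries. None of 24 comparisons (6 shares in 4 comparisons) passed the adjustment, and the smallest adjusted p was 0.171 (exact permutation test, two-sided, Benjamini-Hochberg). With 4 libraries against 4 the smallest p that can be reached is 0.0286. An adjusted p below 0.05 would have needed most of the 24 comparisons at that value. The lack of a pass therefore decides nothing about a single share. The share of Slc16a3 in Slc16a1 and Slc16a3 was 57.7%, 27.7%, 24.7% and 36.6% in the CD4+ WT libraries and 9.75%, 7.43%, 2.94% and 3.68% in the CD8+ WT libraries, which did not overlap (exact two-sided permutation test, p = 0.0286, adjusted p = 0.171). In Sirt2-/- TILs it was 25.6%, 35.6%, 29% and 0% in CD4+ and 3.14%, 5.3%, 10.3% and 5.18% in CD8+ libraries. Its mean without the 3 libraries was 29.7% ± 6.22 (SD, n = 3) in CD4+ and 4.69% ± 2.41 (SD, n = 3) in CD8+ WT TILs, and 30.05% ± 5.08 (SD, n = 3) and 5.98% ± 3.05 (SD, n = 4) in Sirt2-/- TILs.

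The share of Ldhb in Ldha and Ldhb was 12.5% ± 1.46 (SD, n = 4) in CD4+ and 5.0% ± 4.86 (SD, n = 4) in CD8+ WT TILs, and without the 3 libraries 12.5% ± 1.79 (SD, n = 3) and 2.62% ± 1.24 (SD, n = 3). In Sirt2-/- TILs without the 3 libraries it was 12.2% ± 2.59 (SD, n = 3) and 2.46% ± 0.788 (SD, n = 4). The share of Pfkp in the phosphofructokinases was 55.5% ± 7.33 (SD, n = 4) in CD4+ and 67.6% ± 0.994 (SD, n = 4) in CD8+ Sirt2-/- TILs, without overlap (exact two-sided permutation test, p = 0.0286, adjusted p = 0.171). In WT TILs the shares of Pfkp overlapped with all libraries (60.8% ± 10.4 (SD, n = 4) and 64.5% ± 3.74 (SD, n = 4)) and did not without the 3 (56.4% ± 6.51 (SD, n = 3) and 66.4% ± 1.06 (SD, n = 3)). The share of Hk2 in the hexokinases was 8.32% ± 2.26 (SD, n = 4) in CD4+ and 15.9% ± 4.11 (SD, n = 4) in CD8+ Sirt2-/- TILs, also without overlap (exact two-sided permutation test, p = 0.0286, adjusted p = 0.171). The shares of Slc2a3 overlapped between the cell types in both genotypes. Those of Pdk1 overlapped too, except in WT TILs without the 3 libraries (48.7% ± 4.28 (SD, n = 3) in CD4+ and 36.8% ± 6.02 (SD, n = 3) in CD8+ cells).

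**Figure D3:**
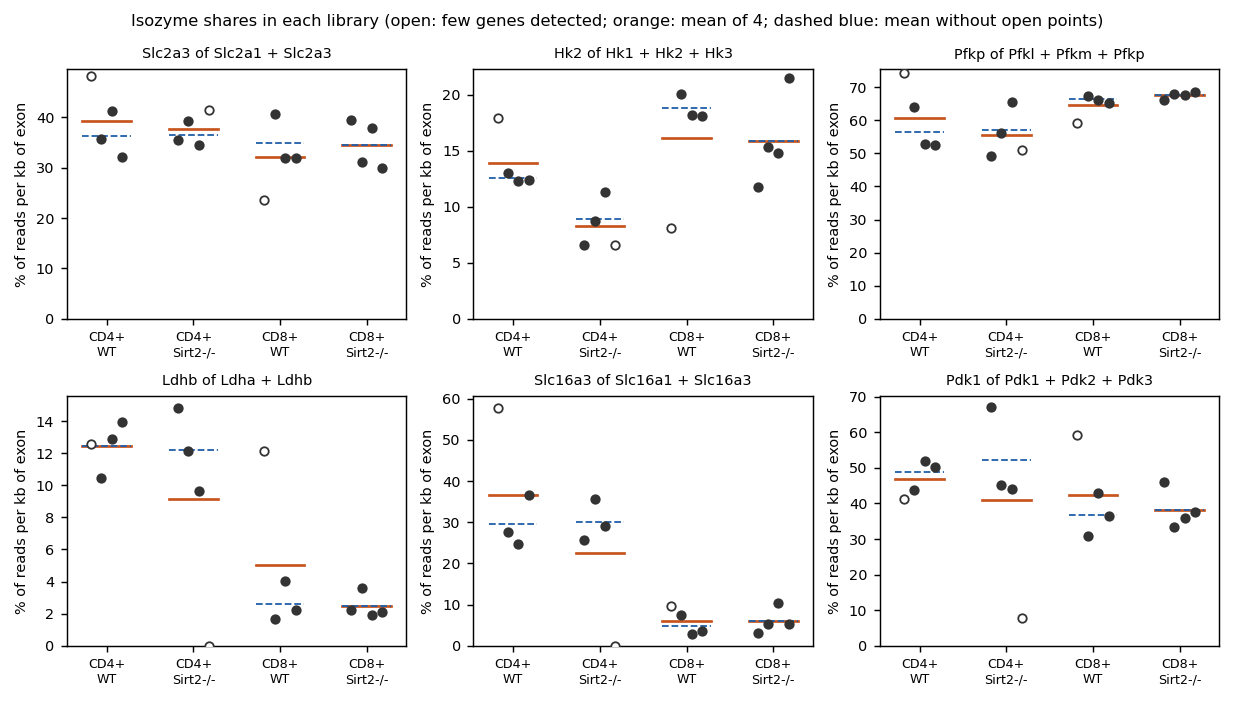
Share of 1 isozyme in its family, in percent of reads per kb of exon (y axis), in each library by group (x axis). Open points are the 3 sparse libraries, orange lines the mean of 4 libraries and dashed blue lines the mean without open points. Apart from the open points, the Slc16a3 and Ldhb shares of the CD8+ libraries all lie below those of the CD4+ libraries.

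The second question was whether loss of Sirt2 changed these genes. In CD4+ TILs none of the 32 members passed (edgeR, 0 at an unadjusted p below 0.05), nor did any gene of the 15070 tested (0%). DESeq2 and limma-voom called 0 members as well. The edgeR fit did not call Sirt2 itself either, at 40.7 to 75.6 CPM in WT and 0 to 12.2 CPM in Sirt2-/- CD4+ libraries. The lack of calls in this fit therefore decides little about the members. The log2 fold changes of the members had a median of -0.28, with 25 of 32 lower in Sirt2-/- cells. Over all genes the median was -0.11, with 8742 of 15070 lower. Hk1, Hk2 and Tigar did not overlap, each lower in Sirt2-/- TILs, whereas the background of genes without overlap was 1.82% lower and 1.31% higher.

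Without the 3 libraries 0 members passed in CD4+ TILs, against 0.0374% of 16034 genes. At an unadjusted p below 0.05 (edgeR) were 3 members and 4.35% of all genes. The median was then -0.15, with 22 of 32 lower, beside -0.0016 over all genes, of which 8057 of 16034 were lower. No member lay above the WT range (5.74% of all genes did), and 6 lay below it, Gpi1, Hk1, Hk2, Pfkm, Pgam1 and Tigar, where 5.15% of all genes did. The gap between the highest Sirt2-/- and the lowest WT library was small for Gpi1, 261.7 against 261.9 CPM. It was also small for Pfkm (12.05 against 12.20 CPM) and Pgam1 (13.08 against 13.17 CPM). With CPM by total counts, without TMM scaling, Gpi1 and Pfkm overlapped between the genotypes.

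Among these, Hk2 had 31.8, 19.7, 18.3 and 24 CPM in WT and 7.81, 12.1, 15.8 and 6.1 CPM in Sirt2-/- CD4+ TILs. Its log2 fold change was -1.15 ± 0.68 (SE, edgeR unadjusted p = 0.121), and -0.80 ± 0.26 (SE, edgeR unadjusted p = 0.0104) without the 3 libraries, with an adjusted p of 0.844 by edgeR. The share of Hk2 in the hexokinases was 13.9% ± 2.71 (SD, n = 4) in WT and 8.32% ± 2.26 (SD, n = 4) in Sirt2-/- CD4+ cells, without overlap (exact two-sided permutation test, p = 0.0286, adjusted p = 0.171). Hk1 had 183, 187, 185 and 237 CPM in WT and 154, 173, 164 and 124 CPM in Sirt2-/- CD4+ TILs, with a log2 fold change of -0.36 ± 0.18 (SE, edgeR unadjusted p = 0.0715). Tigar had a log2 fold change of -1.59 ± 1.46, which was -0.52 ± 0.31 without the 3 libraries. Neither gene passed the adjustment, nor did Hk2.

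The other genes looked at in every comparison overlapped between the genotypes in CD4+ TILs. The log2 fold change was -0.31 ± 0.31 (SE, edgeR unadjusted p = 0.353) for Slc2a1, -0.39 ± 0.30 (SE, edgeR unadjusted p = 0.224) for Gapdh, 0.020 ± 0.19 (SE, edgeR unadjusted p = 0.919) for Ldha and 0.39 ± 0.25 (SE, edgeR unadjusted p = 0.157) for Hif1a. The same values without the 3 libraries were -0.28 ± 0.18, -0.16 ± 0.16, -0.077 ± 0.13 and 0.17 ± 0.21. The SE of the members had a median of 0.41 with all libraries and of 0.21 without the 3, and the log2 fold change with 1.96 SE on either side stayed within 1 for 16 and 24 of the 32 members.

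In CD8+ TILs again none of the 32 members passed (edgeR, 2 at an unadjusted p below 0.05), where 0.00654% of 15302 genes did. An unadjusted p below 0.05 was found for 3.78% of all genes (edgeR). DESeq2 and limma-voom called 0 members. The median was -0.0020, with 15 higher and 17 lower, beside 0.011 over all genes. Hif1a was the only member whose Sirt2-/- libraries all exceeded the WT libraries (1.74% of all genes), and Eno3 the only one whose Sirt2-/- libraries all lay below (1.22%). Hif1a had 126, 172, 160.2 and 168 CPM in WT and 176, 209, 192 and 289 CPM in Sirt2-/- CD8+ TILs, a log2 fold change of 0.47 ± 0.16 (SE, edgeR unadjusted p = 0.014) with an adjusted p of 0.986 by edgeR. The gap between the highest WT and the lowest Sirt2-/- library was small, 172 against 176 CPM.

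The myeloid marker sums of CD8+ TILs were higher in every Sirt2-/- than in every WT library. Those of CD4+ TILs, and the stromal sums in both cell types, overlapped between the genotypes. In CD8+ TILs the 12 myeloid markers summed to 2.24 to 9.54 CPM in WT and to 9.84 to 38.4 CPM in Sirt2-/- libraries. Of these, 8 were tested and all 8 had a higher level in Sirt2-/- cells, with a median log2 fold change of 2.38, 4 at an unadjusted p below 0.05 (edgeR) and 0 called. S100a8 and S100a9, genes of neutrophils, had at most 0.0608 and 0.173 CPM in CD8+ libraries. The 5 stromal markers summed to 0 to 3.57 CPM in WT and to 1.01 to 57.4 CPM in Sirt2-/- CD8+ libraries, and neither of the 2 tested was called. Of the CD8+ libraries, Sirt2-/- library 4 had the highest Hif1a level and the highest sum of both lists. Without it the log2 fold change of Hif1a was 0.29 ± 0.13, and the 3 other Sirt2-/- libraries still lay above the WT range. In CD4+ TILs the myeloid markers summed to 1.5 to 15.6 CPM in WT and to 9.6 to 35.4 CPM in Sirt2-/- libraries, with 8 of 8 tested higher and 0 at an unadjusted p below 0.05 (edgeR), and the stromal markers to 0.624 to 11.1 CPM and to 3.95 to 58.04 CPM. Without the 3 libraries, all 4 stromal markers tested were higher in Sirt2-/- CD4+ cells, at a median log2 fold change of 3.50. Of these 4, 3 had an unadjusted p below 0.05 (edgeR) and 0 were called. All 9 myeloid markers then tested were higher too, with 1 at such a p (edgeR) and 0 called. The 7 melanoma markers summed to 3.83 to 11.4 CPM in WT and to 7.21 to 15.7 CPM in Sirt2-/- CD8+ libraries. The 11.4 CPM were those of WT library 1. Without it all 5 tested were higher in Sirt2-/- CD8+ cells, at a median log2 fold change of 1.35. Of them 2 had an unadjusted p below 0.05 (edgeR) and 0 were called. In CD4+ TILs without the 3 libraries 3 of 5 tested were higher. The part of these cells in the results was not tested.

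Eno3 had 23.2, 14.6, 14 and 15.2 CPM in WT and 12.8, 12.9, 11.2 and 10.3 CPM in Sirt2-/- CD8+ TILs, with a log2 fold change of -0.51 ± 0.20 (SE, edgeR unadjusted p = 0.0303). CD8+ WT library 1, one of the sparse ones, was the highest of them, and without it the value was -0.30 ± 0.15 (SE, edgeR unadjusted p = 0.0651). The log2 fold change was -0.10 ± 0.13 (SE, edgeR unadjusted p = 0.456) for Slc2a1, -0.073 ± 0.34 (SE, edgeR unadjusted p = 0.831) for Hk2, 0.026 ± 0.18 (SE, edgeR unadjusted p = 0.886) for Gapdh and 0.15 ± 0.19 (SE, edgeR unadjusted p = 0.455) for Ldha.

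Without CD8+ WT library 1, 0 members passed in CD8+ TILs, against 0.0439% of 15943 genes. At an unadjusted p below 0.05 (edgeR) were 2 members and 4.18% of all genes. The median was then -0.065, with 9 higher and 23 lower. Over all genes it was 0.0086, with 7694 of 15943 lower. Hif1a still lay above the WT range (2.68% of all genes), and Eno3 and Pfkl below it (2.5%). The log2 fold change of Hif1a was 0.38 ± 0.15 (SE, edgeR unadjusted p = 0.0264). The SE of the members had a median of 0.14, and for 29 of 32 members the log2 fold change with 1.96 SE on either side stayed within 1.

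**Figure D4:**
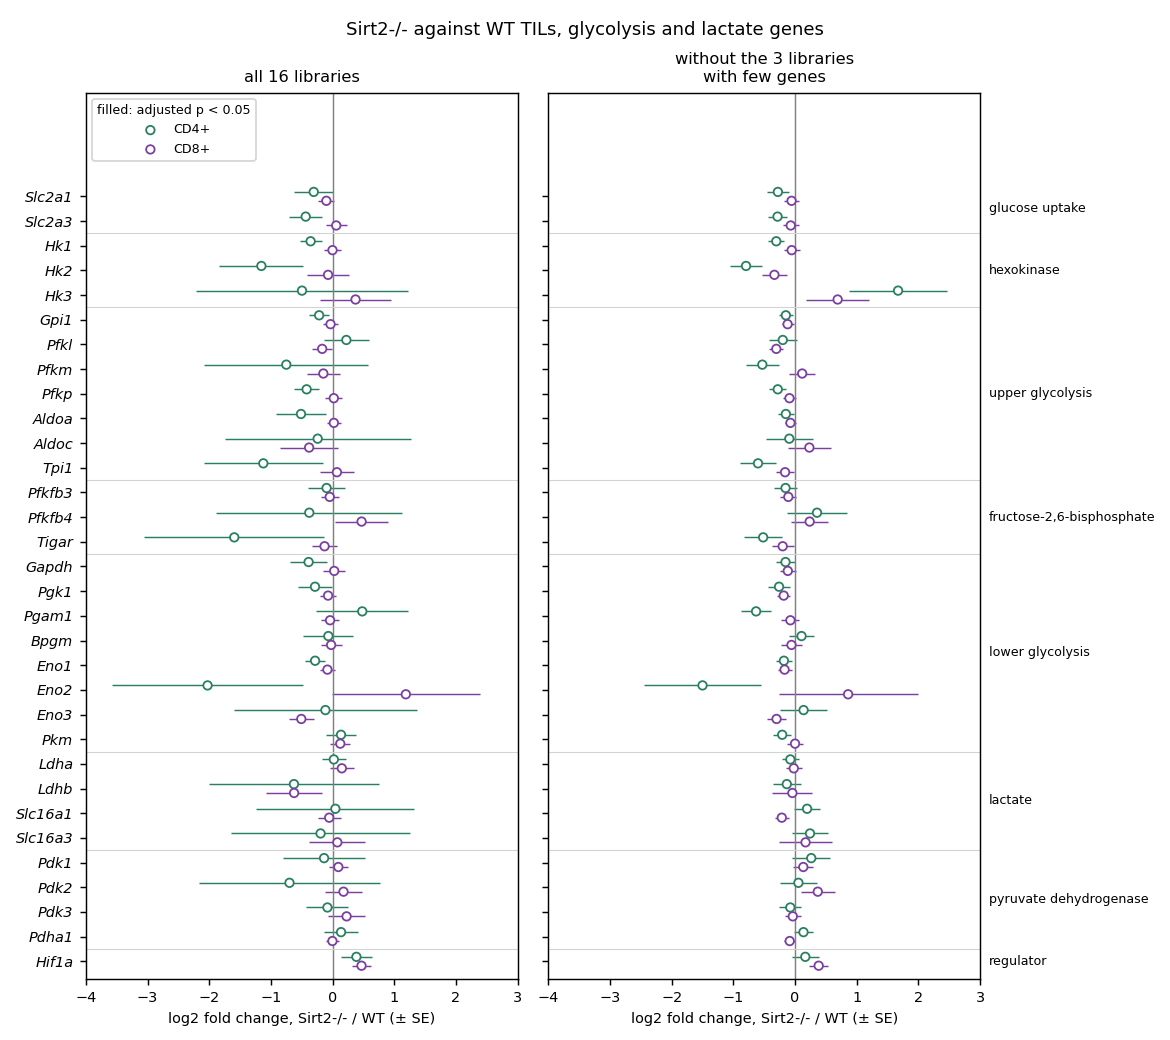
Log2 fold changes of Sirt2-/- over WT TILs (x axis, ± SE from edgeR) for 32 members grouped by role (y axis), in CD4+ (green) and CD8+ (purple) TILs, with all 16 libraries on the left and without the 3 sparse libraries on the right. All points are open, since 0 members passed an adjusted p of 0.05 in either cell type.

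Whether the genotype effect differed between the cell types was tested as an interaction over all 16 libraries. None of the 32 members tested passed (edgeR, 0 at an unadjusted p below 0.05, and 0 by DESeq2 and limma-voom), nor did any of 17270 genes (0%). After the 3 libraries were left out 0 of 33 passed, with 0 at an unadjusted p below 0.05, and 0% of 17993 genes did. The members' median difference, CD8+ minus CD4+, was 0.23 with all libraries and 0.077 without the 3, beside 0.14 and 0.026 over all genes.

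Of the genes outside the members, no further pathway gene and no HIF pathway gene that was tested passed between the genotypes in either cell type, with or without the 3 libraries. At an unadjusted p below 0.05, 0 of 28 tested pathway genes and 2 of 20 HIF pathway genes were found in CD4+ TILs without the 3 libraries, and 0 of 28 and 2 of 20 in CD8+ TILs. Over all genes 4.35% had such a p in CD4+ and 4.18% in CD8+ TILs (edgeR).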

How the data were processed

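Total RNA of CD4+ and CD8+ TILs (1 ng per library) was made into stranded, ribosomal RNA-depleted libraries and sequenced as paired reads. The authors deposited raw counts, 1 integer per gene and library with no scaling applied, and the submitters' processing notes name STAR, HTSeq and mm10. Versions and the strand setting of the counting are not given in the sources used here. All 55450 identifiers matched GENCODE M21 on GRCm38, the source of coordinates and exon lengths. Promoters came from RefSeq (GRCm38.p6).

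Libraries were grouped by their labels. Each comparison of 2 groups was fitted on all genes with edgeR 4.0.16 in R 4.3.3 (TMM scaling, filterByExpr, robust quasi-likelihood fit and two-sided test), with Benjamini-Hochberg adjustment over all genes tested and a threshold of 0.05. The interaction used all 16 libraries. CPM are TMM-scaled, and TPM divide by the exon length of a gene. Isozyme shares were compared by exact permutation over libraries, adjusted over 24 tests. Functions were tested on simulated data. Alternatives were DESeq2 1.42.0, limma-voom (limma 3.58.1) with quality weights, other scalings and filters, 1 model of all libraries, a replicate block, an adjusted p below 0.1, reads without division by length, and leaving out 1 or 3 libraries. The 3 libraries were set aside for their low number of detected genes.

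Values per library are given for Slc2a1, Hk2, Gapdh, Ldha and Hif1a, for every member called with or without the 3 libraries, and for the 3 members with the smallest p per comparison among those whose groups do not overlap, and the remaining members by range. Of further listed genes, those called are named. The members and lists were chosen with earlier results of these data known. The labels give 4 per group and do not tie libraries of the same number to 1 animal, so p-values measure the spread between these libraries, which may in part be technical. No molecular identifiers were counted, so reads of 1 molecule can be counted more than once, and the precision rests mainly on the 4 libraries per group.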

Additional observations from a re-analysis of the deposited data

Results flagged for a closer look

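Within groups of 4 libraries, 9 of 112 groups had a library whose gap to its nearest neighbour was over Dixon's 95% limit as a part of the range of the group, where chance alone gives about 5.6. By library, 2 of these values came from CD4+ WT library 1, 2 from CD8+ WT library 1 and 1 from CD4+ Sirt2-/- library 4, the sparse libraries, and 4 from other libraries.

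In the sparse libraries, these were Pgam1 at 85.8 CPM in CD4+ Sirt2-/- library 4, Tigar at 38.4 CPM and a share of Hk2 in the hexokinases of 18.0% in CD4+ WT library 1, and Eno3 at 23.2 CPM and a share of Hk2 of 8.15% in CD8+ WT library 1. In other libraries they were Hk1 at 237 CPM in CD4+ WT library 4, Pdk1 at 124.6 CPM in CD8+ Sirt2-/- library 1, Eno1 at 465 CPM in CD8+ Sirt2-/- library 3 and Bpgm at 13.2 CPM in CD8+ Sirt2-/- library 4. Their causes were not tested.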

How the results depend on the processing

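All alternatives here were planned. The calls of members between the genotypes and in the interaction stayed at 0 under every one. Between CD8+ and CD4+ TILs they moved. In WT TILs the 6 calls became 19 with limma-voom, 1 with all 16 libraries in 1 model and 16 without the 3 sparse libraries, and 2 to 7 with 1 library left out, the 2 or 3 without CD4+ replicate 4 or CD8+ replicate 2, 3 or 4. The 2 calls in Sirt2-/- TILs became 16, 4 and 15, and 0 to 15 with 1 library left out, with 15 without CD4+ replicate 4, 1 without CD4+ replicate 2, CD8+ replicate 1 or CD8+ replicate 4, and 0 without CD8+ replicate 2 or 3. The WT median of the members, -0.076, was 0.095 with limma-voom and 0.098 without the 3 libraries. DESeq2 gave 8 and 3 calls.

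The labels do not tie the numbers to an animal, and the numbers were not taken to pair the libraries. In no comparison did every pair have a correlation over 0.1, a cut-off that cannot show the libraries to be unpaired. Residual correlations of libraries with the same number ran from -0.07 to 0.08 between genotypes, from 0.07 to 0.12 between cell types in WT TILs, where each library was most like its own number, and from -0.01 to 0.13 in Sirt2-/- TILs, where not all were. With the replicate number as a block, the calls of members were 6 in WT and 1 in Sirt2-/- TILs, and those of all genes 1619 in place of 1765 and 108 in place of 354. The block turned Ldha between genotypes in CD4+ TILs to -0.0033, Hk2 between genotypes in CD8+ TILs to 0.018, and, between cell types, Hk2 in WT to -0.038, Pfkp in WT to 0.011 and Pgam1 in Sirt2-/- TILs to 0.43.

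The log2 fold changes that reversed lay between -0.073 and 0.15 as reported, apart from Pgam1 at -0.24. In WT TILs, Pfkp between cell types turned from -0.0071 to 0.0084 with DESeq2 and with its size factors, 0.32 with limma-voom, 0.023 with upper quartile scaling, 0.060 without filter, 0.025 with at least 10 counts in every library, 0.057 in 1 model of all libraries and 0.37 without the 3 libraries, where it passed the test (-0.10 to 0.26 with 1 library left out). Slc2a1 turned to -0.012 with limma-voom, and Hk2 ranged from -0.082 to 0.36 with 1 library left out. Pgam1 in Sirt2-/- TILs was 1.04 with limma-voom and 1.07 without the 3 libraries (-0.54 to 1.07). Between genotypes, Ldha in CD4+ TILs turned to -0.053 with at least 10 counts and -0.077 without the 3 libraries (-0.15 to 0.14), Ldha in CD8+ TILs to -0.059 with limma-voom and -0.021 without CD8+ WT library 1 (-0.021 to 0.28), Gapdh in CD8+ TILs to -0.16 and -0.12 (-0.12 to 0.13), and Hk2 in CD8+ TILs ranged from -0.34 to 0.12.

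Differences in isozyme shares that turned, in percentage points, all had overlapping groups. Without the 3 libraries, Sirt2-/- minus WT was 0.069 for Slc2a3 (-4.11 to 1.31 with 1 library left out), 0.59 for Pfkp, 0.38 for Slc16a3 and 3.44 for Pdk1 (-14.5 to 5.34) in CD4+ TILs, and -0.27 for Slc2a3 (-0.27 to 5.41) and 1.45 for Pdk1 (-7.98 to 1.45) in CD8+ TILs. In CD8+ TILs, Hk2 ranged from -2.93 to 1.11 and Slc16a3 from -1.41 to 1.29 with 1 library left out. Pdk1 in Sirt2-/- TILs, CD8+ minus CD4+, was 2.89 without division by length (-13.9 to 5.87 with 1 library left out). The cause of these changes was not tested. With 4 libraries per group, and 3 in most groups once the sparse ones are left out, smaller differences between the genotypes were not detectable.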
